A study of Macaca mulatta with 14 samples.

Results

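DNA damage repair genes were followed in mononuclear cells of peripheral blood (PBMC, mostly lymphocytes with some monocytes) from rhesus macaques on a control diet or on calorie restriction (CR). A list of 38 genes from the main repair pathways was matched to the array by gene symbol. A gene entered when at least 1 probe set carried its symbol and no other in the platform annotation, which held for 23 of the 38. Each gene was represented by its probe set with the highest mean log2 signal over the 14 arrays. Of these 23 genes, 20 belonged to the brighter 50% of probe sets, on which the diets were tested, out of 9355 genes tested in all. BRCA1, BRCA2 and XRCC3 lay below that filter. The other 15 genes had no probe set under this rule and were not analysed here: ATM, ATR, RAD50, MRE11, NBN, XRCC2, FANCA, LIG4, XRCC1, LIG1, POLB, APEX1, MSH3, XPC and DDB1.

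All animals were male, and each gave 1 array. The control group had 7 animals aged 24 to 27 years and the CR group 7 animals aged 24 to 30 years. The design text gives 16 years of CR, taken here as the time that the CR animals had spent on the diet. The ages of single animals were not used, and age was no term in any fit. Total RNA was hybridised to an Affymetrix rhesus expression array. Signals are MAS5 intensities on a log2 scale, on which a difference of 1 is a 2-fold change. PBMC are a mixture, so fewer cells of a type and less RNA per cell cannot be told apart in any value below.

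Cells repair DNA through several routes, and some proteins act in more than a single route. Here each gene was assigned to a single pathway. Breaks across both strands are sensed by the MRN complex and the kinase ATM and marked by MDC1 and TP53BP1. They are then closed by end joining, in which the Ku proteins hold the ends for a ligase, or by homologous recombination with BRCA1 and BRCA2, which copies a sister chromatid and so works after DNA replication. Damaged bases and nicks are handled by base excision and PARP-dependent repair, replication errors by mismatch repair, and bulky lesions such as those of ultraviolet light by nucleotide excision repair. Circulating lymphocytes and monocytes are mostly resting cells, in which the Ku proteins are known to be abundant.

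The deposited signals had the same mean on every array, without the highest and lowest 2%, so a likeness in overall brightness is not a result. In other respects the arrays were not all alike. The median correlation of an array with the other 13 ran from 0.879 in control 1 to 0.934 in control 7. The log2 ratio of 3-prime to 5-prime GAPDH control probe sets, which rises as RNA is degraded or incompletely copied, was 5.07 to 7.50 in controls (median 6.07), with control 1 the highest, and 6.03 to 6.87 in CR (median 6.62). Whether this level, high on all arrays, came from the RNA or from the probe design was not tested. All 7 measured monocyte markers had lower means in CR. Their summed signal was 15.07 to 16.37 (log2) in controls and 12.56 to 15.97 in CR, and the centred level was lowest in CR 6 (-2.28) and CR 7 (-1.69). The other CR arrays lay higher, with CR 1 the highest of all arrays at 1.19. CR 2 was at 0.48, CR 5 at 0.46, CR 3 at -0.12 and CR 4 at -0.21, inside the control range of -0.73 to 1.07. The lower monocyte level was thus not shared by all CR animals. Of the defining T cell markers, CD3D, CD3E and CD3G were not analysed here. Among 6 other markers of T cells 5 were higher in CR, with a summed signal of 12.12 to 13.07 in controls and 12.59 to 13.80 in CR, and the 6 measured B cell markers gave 12.61 to 13.93 and 12.63 to 14.36. The 7 measured NK and cytotoxic markers gave 16.10 to 16.90 and 16.71 to 17.40. The 5 markers listed for neutrophils gave 12.09 to 14.57 and 9.89 to 13.79. They were S100A8, S100A9, CSF3R, MPO and ELANE, a list not shown to separate neutrophils from monocytes. CR 6 and CR 7 also had the lowest centred levels of that list (-1.51 each) and of platelet markers (-2.0 and -1.0). A fit with the monocyte level as a covariate cannot tell these cell types apart. No measured marker of these cell types was at the intensity floor on all arrays. The part of cell make-up and RNA quality in the results below was not tested beyond the fits named there.

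No repair gene separated the diets. At an adjusted p under 0.05 (limma, over all 26383 tested probe sets), 0 of the 20 tested genes were called, against 0% of all tested probe sets. At an unadjusted p under 0.05 the count was also 0 of 20, where 5.18% of the 9355 genes passed. Adjusted p ran from 0.918 to 0.996. Of the 20 genes, 12 were higher and 8 lower in CR, and 54% of all genes were higher. The median difference was 0.066, against 0.025 over all genes. No tested repair gene differed by more than 0.5 on the log2 scale, a size that 8.17% of all genes reached.

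These intervals also bound what could have been missed. The 95% interval of the difference held 0 in 20 of 20 genes and lay within a 2-fold change in either direction in 17. The 3 exceptions were OGG1, ERCC1 and ERCC4, whose intervals reached past that size. The SE of a difference ran from 0.13 for XRCC6 to 0.50 for OGG1. The median spread between animals of a diet, as the pooled within-diet SD, was 0.40 for the 20 genes and 0.42 over all genes.

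**Figure D1:**
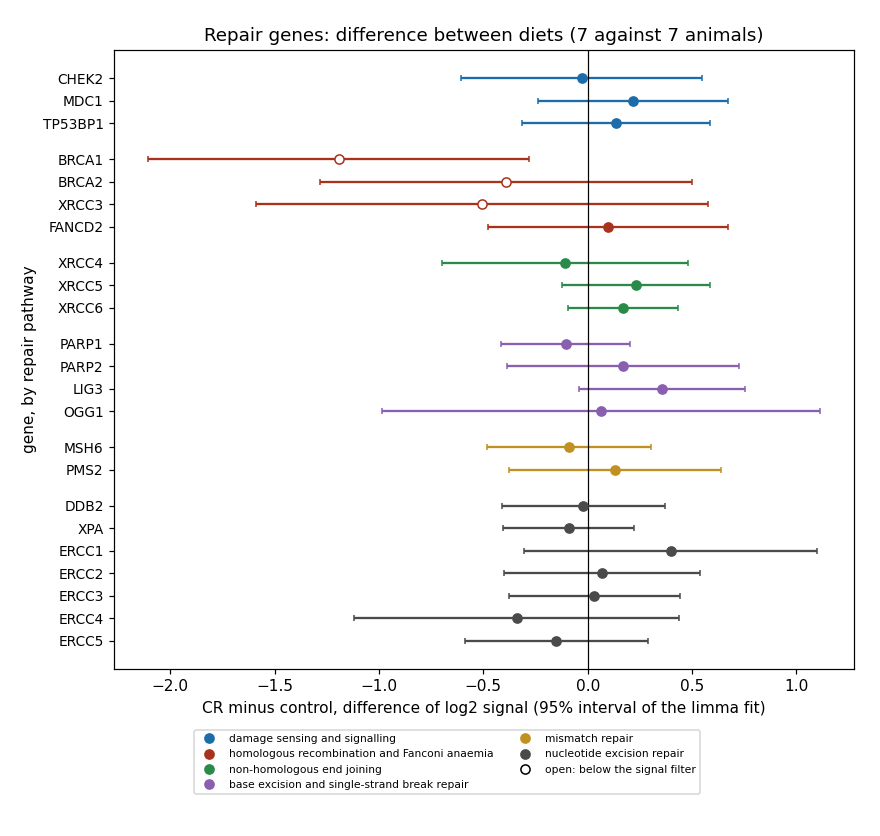
The plot of differences gives each of the 23 measured repair genes by pathway, with CR minus control on the x axis (log2 signal) and the 95% interval of the limma fit as a bar. Intervals of all 20 tested genes cross 0, and the open symbols of BRCA1, BRCA2 and XRCC3, the genes below the signal filter, all lie on the lower side.

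Break sensing and signalling was represented by CHEK2, MDC1 and TP53BP1, with a median difference of 0.14. MDC1, the scaffold that reads phosphorylated histone H2AX beside a break, was at 8.07 to 9.20 in controls (median 8.31) and 8.42 to 9.38 in CR (median 8.77). Every one of the 7 CR animals exceeded the control median, as in 5.56% of all genes, but 3 controls (8.80, 9.06 and 9.20) stood among or above most CR animals and the groups overlapped. The difference was 0.22 ± 0.22 (SE, adjusted p = 0.934, limma). With the GAPDH ratio as a covariate it was 0.081 ± 0.22.

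TP53BP1, which steers breaks toward end joining, was at 11.16 to 12.28 in controls (median 11.83) and 11.43 to 12.54 in CR (median 11.85). CR 7 and CR 3 lay above every control at 12.54 and 12.39. The other CR values lay inside the control range, with CR 6 the highest of them at 12.19. The difference was 0.14 ± 0.22 (adjusted p = 0.957, limma). It was 0.030 without CR 7, and -0.061 ± 0.17 with the monocyte marker level as a covariate, so its sign was not fixed. CHEK2, the checkpoint kinase downstream of ATM, differed by -0.029 ± 0.27. Its values spread widely in both diets, from 7.82 to 9.51 in controls and from 8.02 to 9.17 in CR.

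Of the 4 measured recombination and Fanconi anaemia genes FANCD2 alone passed the signal filter, which required a mean log2 signal of at least 6.45. FANCD2, the protein that is ubiquitinated at stalled forks, was at 6.13 to 7.36 in controls (median 6.92) and 6.31 to 7.64 in CR (median 7.02). The diets overlapped throughout, and the difference was 0.097 ± 0.27 (adjusted p = 0.975, limma).

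BRCA1, which promotes resection of broken ends, showed the largest difference among the 23 measured genes. In controls its signal was 5.97, 6.88, 5.91, 6.54, 7.50, 6.83 and 5.69, in the order of replicates 1 to 7. In CR it was 6.26, 4.95, 4.20, 6.20, 4.82, 4.35 and 6.19. All 7 CR values lay below the control median of 6.54, as in 2.88% of probe sets without the filter, and 4 of them lay below every control. The other 3 CR animals stood inside the control range, so the groups overlapped. In a fit of all 52766 probe sets without the filter the difference was -1.19 ± 0.43, or 0.437-fold, with a 95% interval of -2.11 to -0.28. The unadjusted p of that limma fit was 0.0138, a level that 2.36% of probe sets reached on the lower side, and the adjusted p was 0.957, so BRCA1 was not called. Its 1 probe set had a mean log2 signal of 5.88, under the lowest mean tested (6.45). With 1 array left out the difference ran from -1.36 to -1.01, and with the monocyte marker level as a covariate it was -1.02 ± 0.45.

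XRCC3, which acts in homologous recombination, was at 4.07 to 7.09 in controls (median 6.24) and 4.44 to 6.47 in CR (median 5.40). BRCA2, which acts after resection in the same pathway, reached 6.36 in controls (median 4.95) and 5.70 in CR (median 4.40), and 3 of its 14 values were at the floor of 16, the lowest signal kept. In the fit without the filter the differences were -0.51 ± 0.51 for XRCC3 and -0.39 ± 0.42 for BRCA2. The diets overlapped for both genes, and neither difference exceeded its SE.

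**Figure D2:**
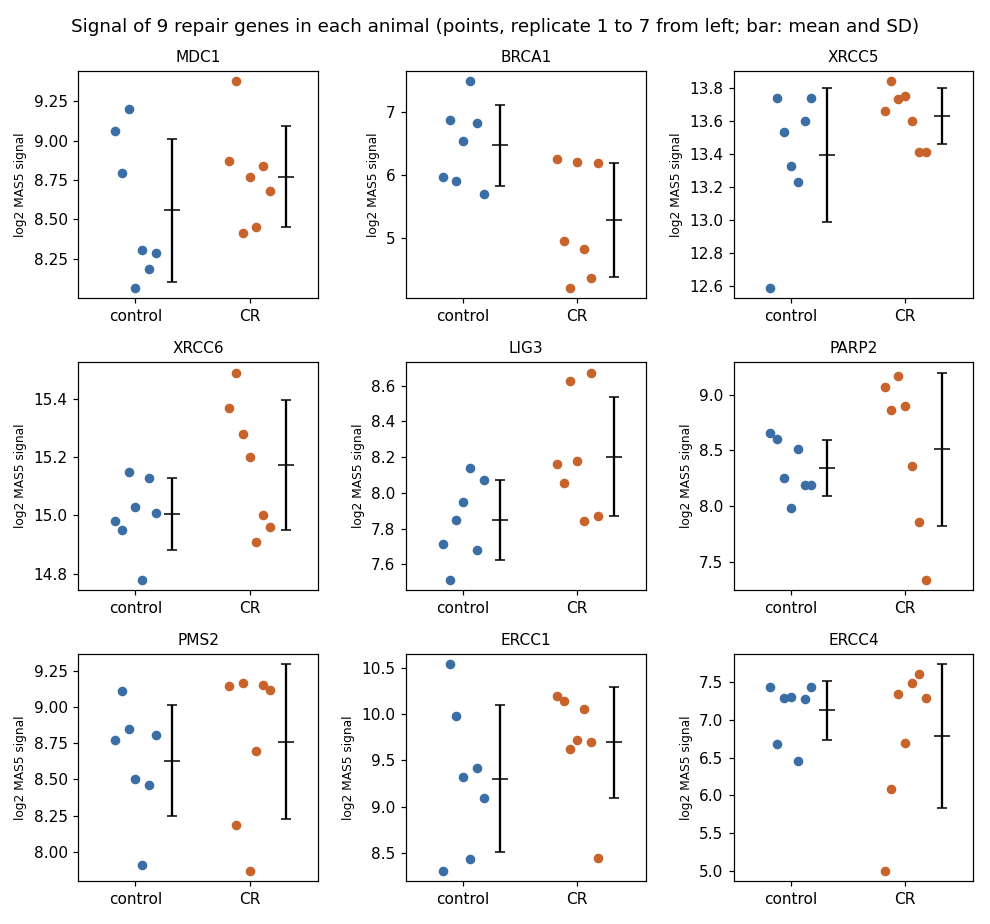
The plot of 9 repair genes by animal shows log2 MAS5 signal for each of 7 control and 7 CR animals as points, with the mean and SD of each diet as a bar; axes differ between panels and do not start at 0. BRCA1 has 4 CR animals under every control, PARP2 and ERCC4 spread more widely in CR than in controls, and control 1 is the low point of XRCC5.

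In end joining 2 of 3 genes had higher means in CR, and the median difference was 0.17. XRCC5 and XRCC6 encode Ku80 and Ku70, the ring that slides onto broken ends. XRCC6 was at 14.78 to 15.15 in controls (median 15.01) and 14.91 to 15.49 in CR (median 15.20), with 4 CR animals, CR 1 to CR 4, above every control. The 3 others lay within the control range. The difference was 0.17 ± 0.13 (adjusted p = 0.924, limma), and XRCC6 had the smallest spread between animals of the 20 genes, a pooled SD of 0.18. With quantile normalization the difference was 0.048 ± 0.099.

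XRCC5 was at 12.59 to 13.74 in controls (median 13.53) and 13.41 to 13.84 in CR (median 13.66). Control 1 was the lowest array at 12.59, and the next control was at 13.23. The difference of 0.23 ± 0.17 (adjusted p = 0.924, limma) was 0.097 ± 0.13 without control 1. With the GAPDH ratio, highest in control 1, as a covariate it was 0.36 ± 0.16 (adjusted p = 0.693, limma). XRCC4, the partner of LIG4 in the final ligation, differed by -0.11 ± 0.28, and 5 of 7 CR values lay below the control median.

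Base excision and nick repair was represented by PARP1, PARP2, LIG3 and OGG1, with a median difference of 0.12. That median was -0.0015 without control 4, -0.010 without CR 4, 0.020 without CR 2 and -0.076 with the mean over a gene's probe sets. LIG3, the ligase that seals nicks in the nucleus and in mitochondria, had the smallest unadjusted p of the 20 tested genes (0.0777). It was at 7.52 to 8.14 in controls (median 7.85) and 7.84 to 8.67 in CR (median 8.16). Of 7 CR values 6 lay above the control median and 4 above every control, and CR 6 and CR 3 were highest at 8.67 and 8.63. The difference was 0.36 ± 0.19, or 1.28-fold, with a 95% interval of -0.044 to 0.75 (adjusted p = 0.918, limma). The 2 other probe sets of LIG3, both below the filter, gave -0.044 ± 0.58 and -0.43 ± 0.52.

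PARP2, one of the enzymes that mark nicks with poly(ADP-ribose), was at 7.99 to 8.65 in controls (median 8.25) and 7.35 to 9.17 in CR (median 8.86). CR 1 to CR 4 lay above every control, at 8.86 to 9.17, while CR 6 and CR 7 lay below every control at 7.86 and 7.35. The SD in CR was 2.75 times that in controls, a ratio given as a description. CR 6 and CR 7 were also the arrays with the lowest levels of monocyte and platelet markers. The difference was 0.17 ± 0.26 (adjusted p = 0.957, limma). With the monocyte marker level as a covariate it was 0.38 ± 0.23 (adjusted p = 0.698, limma), and with 1 array left out it ran from 0.059 (CR 3) to 0.36 (CR 7). Without control 1, CR 6 and CR 7, a set chosen after seeing the data, it was 0.58 ± 0.20 (adjusted p = 0.795, limma), a rise that follows from leaving out the 2 lowest arrays and the highest control for PARP2. Its other probe sets gave 0.0077 ± 0.23 and -0.31 ± 0.33.

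PARP1, the main poly(ADP-ribose) polymerase, was at 11.04 to 11.80 in controls (median 11.51) and 11.16 to 11.73 in CR (median 11.22). Of 7 CR values 6 lay below the control median, yet all stood inside the control range, and the difference was -0.11 ± 0.15 (adjusted p = 0.952, limma). OGG1, the glycosylase that removes oxidised guanine, was the most variable of the 20 genes, at 4.65 to 7.46 in controls and 5.40 to 7.69 in CR (pooled SD 1.03). Its mean log2 signal of 6.51 was also the lowest of the 20, just above the filter limit of 6.45. How much of its spread came from low signal was not tested. Its difference was 0.063 ± 0.50, and its 95% interval was -0.99 to 1.11.

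Mismatch repair was represented by MSH6 and PMS2, which had opposite signs. MSH6, which recognises mispaired bases, was at 10.80 to 11.68 in controls (median 11.37) and 10.63 to 11.62 in CR (median 11.24), a difference of -0.090 ± 0.19. CR 1 and CR 2 were below every control, at 10.63 and 10.77. PMS2, the nicking subunit of the MutL complex, was at 7.91 to 9.11 in controls (median 8.77) and 7.87 to 9.17 in CR (median 9.12). In CR 4 animals sat between 9.12 and 9.17, above every control, and 2 were low at 7.87 and 8.19. The difference was 0.13 ± 0.24 (adjusted p = 0.963, limma).

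Nucleotide excision repair had the best coverage, with 7 of 9 genes tested, 3 on the higher and 4 on the lower side under CR, and its median difference was -0.022. DDB2, which finds ultraviolet lesions in chromatin and is a p53 target, was nearly level at -0.022 ± 0.19. XPA, which verifies the lesion, was at 10.79 to 11.58 in controls (median 11.11) and 10.88 to 11.41 in CR (median 10.94). Of 7 CR values 6 lay below the control median, between 10.88 and 11.01, and CR 4 was high at 11.41. The difference was -0.091 ± 0.15 (adjusted p = 0.957, limma).

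ERCC2 and ERCC3 encode XPD and XPB, the helicases of TFIIH that open DNA around the lesion. They differed by 0.070 ± 0.22 and 0.031 ± 0.19. For ERCC2, 6 of 7 CR values lay below the control median although the mean was higher in CR, where CR 2 was the highest of all arrays at 8.90. ERCC3 spread from 9.96 to 11.18 in controls and from 10.25 to 10.79 in CR.

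ERCC1 and ERCC4, which form the nuclease on the 5-prime side of the lesion, had the widest spread between animals of the 7 genes in this pathway, with pooled SDs of 0.705 and 0.728. ERCC1, the non-catalytic subunit, was at 8.30 to 10.54 in controls (median 9.33) and 8.44 to 10.20 in CR (median 9.72). Of 7 CR values 6 lay between 9.62 and 10.20, CR 7 was at 8.44, and controls 1 and 5 were low at 8.30 and 8.44. The difference was 0.40 ± 0.33 (adjusted p = 0.931, limma), 0.61 ± 0.30 without CR 7 and 0.23 ± 0.32 without control 1. With the monocyte marker level as a covariate it was 0.65 ± 0.30, with an adjusted p of 0.639 by limma, the smallest that any of the 20 genes had in any fit.

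ERCC4, which encodes the catalytic subunit XPF, was at 6.46 to 7.44 in controls (median 7.30) and 5.00 to 7.61 in CR (median 7.30). The medians were equal to 2 decimals, and CR 1 and CR 2 were low at 5.00 and 6.08. The difference of -0.34 ± 0.37 (adjusted p = 0.940, limma) was -0.042 ± 0.29 without CR 1 and -0.66 ± 0.32 with the monocyte marker level as a covariate (adjusted p = 0.649, limma). ERCC5, the 3-prime nuclease XPG, was at 11.55 to 12.79 in controls and 11.60 to 12.38 in CR, with a difference of -0.15 ± 0.21.

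The pathways could also be compared animal by animal, as the median over a pathway's tested genes of log2 signal centred on each gene's mean. For base excision and nick repair this was -0.26 to 0.10 in controls (median -0.052) and -0.20 to 0.35 in CR (median 0.23), and CR 2, CR 3, CR 4 and CR 6 were above every control. For end joining it was -0.92 to 0.23 in controls and -0.13 to 0.32 in CR, and control 1 was the low array. For nucleotide excision repair it was -0.39 to 0.34 and -0.12 to 0.15, so CR animals lay inside the control range. For mismatch repair it was -0.31 to 0.27 and -0.50 to 0.41. For break sensing it was -0.49 to 0.40 and -0.38 to 0.46. Over all 20 genes it was -0.20 to 0.19 in controls (median -0.091) and -0.11 to 0.20 in CR (median 0.14). The diets overlapped in every pathway.

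**Figure D3:**
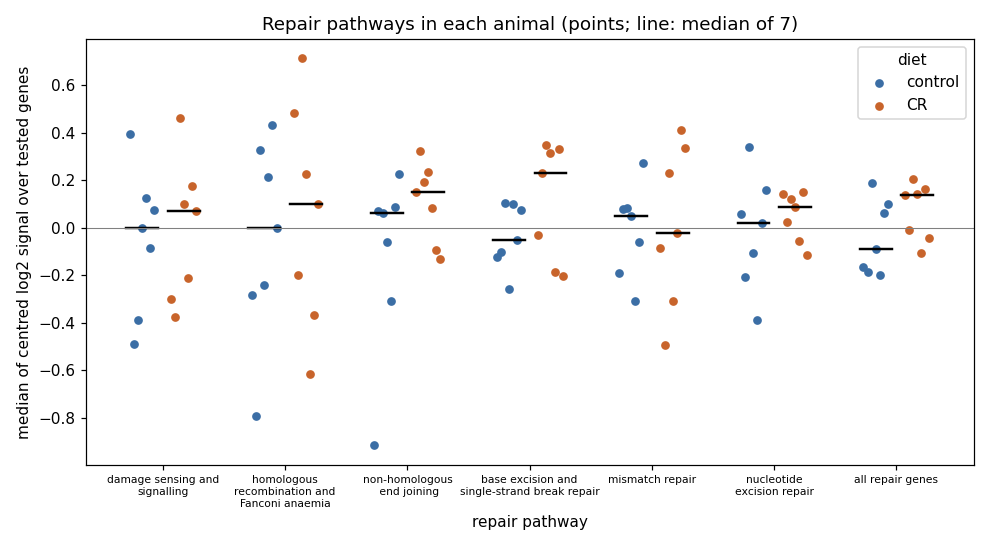
The plot of pathways by animal shows, for each of 7 control and 7 CR animals, the median over the tested genes of a repair pathway of log2 signal centred on each gene's mean over 14 arrays, with the median of a diet as a line. Points of both diets overlap in every pathway, and the recombination column rests on FANCD2 alone.

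Low values came mostly from controls 1, 2 and 5, and high values from both diets. Control 2 was the lowest of the 14 arrays for 6 of the 20 genes, control 1 for 4 and control 5 for 3. No CR array was the lowest for more than 2 genes (CR 1). CR 2 was the highest for 4 genes, and control 3, control 5 and CR 3 were each the highest for 3. CR 5 and control 6 were neither highest nor lowest for any gene.

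Different probe sets of the same gene often differed in sign, and whether they differed beyond their errors was not tested. Of the 23 genes 11 had more than 1 probe set, and of the 20 further probe sets 12 had the sign of the brightest and 8 the opposite sign. All 4 probe sets of XRCC6 were measured: 2 others above the filter gave 0.24 ± 0.16 and 0.13 ± 0.28, and a dim one, at the floor on 10 arrays, gave -0.16 ± 0.48. The second probe set of XRCC5 gave -0.14 ± 0.22 against 0.23 ± 0.17. For TP53BP1 a second probe set above the filter gave 0.32 ± 0.19. ERCC5 had 5 probe sets, of which 1 gave 0.51 ± 0.30 against -0.15 ± 0.21 for the brightest. OGG1 gave -0.37 ± 0.52 with its other probe set. With the mean over a gene's probe sets, 10 of 20 genes were higher and the median difference was -0.0023.

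**Figure D4:**
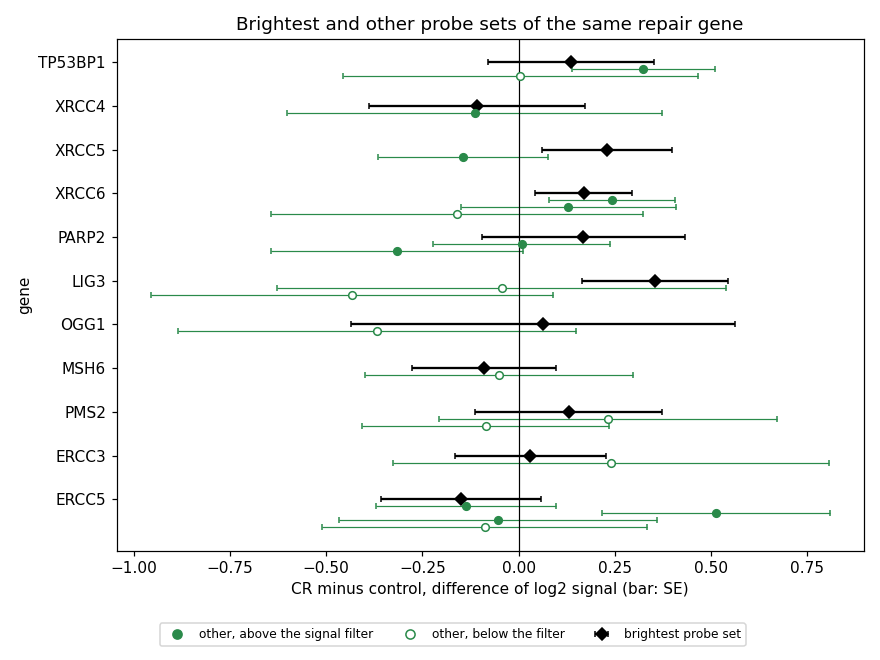
The plot of probe sets shows CR minus control (log2 signal, bar: SE) for the brightest probe set and each other probe set of 11 repair genes, with open circles for those below the signal filter. XRCC5, XRCC6, PARP2, LIG3, OGG1, PMS2 and ERCC5 each have probe sets on both sides of 0.

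Genes whose products form 1 complex were compared across animals. Of the planned pairs 3 could be measured, and each diet was centred on its mean before correlation over the 14 arrays. XRCC5 and XRCC6 had r = 0.402 (permutation p = 0.0740, adjusted over 3 pairs 0.222) and rho = 0.495 (permutation p = 0.0595, adjusted 0.125). Without the 2 arrays farthest from the XRCC5 median r was 0.532, with n = 12 (permutation p = 0.0914), and after quantile normalization it was 0.030 (permutation p = 0.919). ERCC1 and ERCC4 had r = -0.304 (permutation p = 0.253, adjusted 0.380) and rho = -0.455 (permutation p = 0.0831, adjusted 0.125), with r = -0.501 without 2 arrays. ERCC2 and ERCC3 had r = -0.0081 (permutation p = 0.977, adjusted 0.977) and rho = 0.121 (permutation p = 0.702, adjusted 0.702), with r = -0.029 without 2 arrays. No pair passed, and the arrays of a pair share RNA quality, cell make-up and scaling.

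The wider repair machinery was read from a second list of genes outside the 38. Of 68 with a probe set 61 were tested, 39 with a higher and 22 with a lower mean under CR (median difference 0.11), where 54% of all genes were higher. None was called at an adjusted p under 0.05 (limma). At an unadjusted p under 0.05 there were 2 of 61, a smaller share than the 5.18% of all genes that passed at that level. These were POLL, a gap-filling polymerase of end joining, at 0.38 ± 0.17, and GTF2H4, a subunit of TFIIH, at 0.41 ± 0.17 (adjusted p = 0.918 each, limma). For POLL 7 of 7 CR animals were over the control median, as in 5.56% of all genes, and for GTF2H4 6 of 7. DCLRE1C (Artemis, the end joining nuclease) and PRKDC (the DNA-dependent protein kinase) differed by 0.18 ± 0.21 and 0.082 ± 0.14.

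Among the other groups, 7 of 11 further base excision genes were higher, with a median difference of 0.090 and single differences from -0.64 to 0.54. NTHL1 and MUTYH, glycosylases of base excision, differed by 0.54 ± 0.34 and 0.33 ± 0.23. For both genes 7 of 7 CR animals exceeded the control median, as in 5.56% of all genes. TDP1, which frees trapped topoisomerase I, differed by 0.31 ± 0.18. Further signalling genes were higher in 6 of 10, with CLSPN (claspin, an adaptor of the ATR pathway) on the lower side at -0.52 ± 0.30 and RAD9A and RAD17 of the checkpoint clamp and its loader at 0.20 ± 0.18 and 0.19 ± 0.18. Further recombination and Fanconi genes were higher in 11 of 16, and 16 of 19 with a probe set passed the signal filter. Further nucleotide excision genes were higher in 6 of 11, with CUL4A, the cullin of the DDB ligase, at -0.45 ± 0.24 and ERCC6 at 0.26 ± 0.23. Direct reversal and translesion genes were higher in 5 of 6, with REV3L at 0.28 ± 0.14, POLH at 0.41 ± 0.24 and MGMT at 0.29 ± 0.21. The mismatch genes MLH3 and PMS1 were at 0.20 ± 0.43 and -0.039 ± 0.20. None of these genes was called.

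Replication and p53 genes give the setting in which repair genes act. Of 14 replication and proliferation genes 13 had a higher mean under CR (median difference 0.12), where 54% of all genes were higher, and 0 were called. MCM3 of the replicative helicase differed by 0.47 ± 0.19, MCM4 by 0.33 ± 0.22 and MKI67, a marker of cycling cells, by 0.32 ± 0.23. The mean centred level of these genes was -0.37 to 0.39 in controls and -0.43 to 0.48 in CR, so the diets overlapped. Of 11 tested p53 targets 5 were higher and 6 lower (median -0.020), with 0 called. SESN1 was at -0.37 ± 0.16 and ZMAT3 at -0.61 ± 0.34. For both, all 7 CR animals were under the control median, as in 2.92% of all genes. CDKN1A, the p21 inhibitor of cyclin-dependent kinases, was at -0.45 ± 0.31.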

How the data were processed

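RNA of 14 PBMC samples, 7 per diet, was measured on Affymetrix arrays. The deposited intensities are linear MAS5 signals of 52865 probe sets; MAS5 is named without a version in the submitters' processing notes. In the deposited table the mean without the highest and lowest 2% was 500.0 on every array. Intensities were floored at 16 and converted to log2. The 99 AFFX controls were dropped, and the 50% with the higher mean log2 were tested, 26383 probe sets (geometric mean of at least 87.7). Depth does not apply, and the number of arrays limits precision.

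CR minus control was tested with limma 3.58.1 in R 4.3.3 (lmFit, eBayes with trend, two-sided, no covariate, Benjamini-Hochberg over tested probe sets, threshold 0.05). The fit was also run on simulated arrays with known changes and independent noise for each probe set. That run does not cover effects of cell make-up or RNA quality shared by many genes. Genes below the filter were taken from the same limma fit of the measured arrays without the filter. Partner correlations used 100000 permutations within diet, two-sided.

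The members and lists were chosen with earlier results of these data known. Values by animal were given for members with an unadjusted p under 0.05 and the 2 smallest p of each pathway; other members were added afterwards. Other lists give up to 3 tested genes of smallest p, except the recombination and Fanconi list, given by counts only because an item is not reported here. Alternatives covered floor, filter, scaling, array weights, variance trend, replicate block, 2 covariates, probe set choice and left-out arrays. Probe positions and detection calls were not used here.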

Additional observations from a re-analysis of the deposited data

Results flagged for a closer look

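In groups of 7 arrays, 2 of 60 values by gene or pathway and diet had an end point far from the others by Dixon's ratio of gap to range. Chance gives about 1 in 20, so 2 of 60 is not above it. XPA was at 11.41 in CR 4, with the next CR animal at 11.01. ERCC1 was at 8.44 in CR 7, with the next CR animal at 9.62. CR 7 also had one of the lowest levels of monocyte and platelet markers. With the monocyte marker level as a covariate the ERCC1 difference between diets was 0.65 ± 0.30, against 0.40 ± 0.33 without it.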

How the results depend on the processing

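Under 27 alternatives 0 of the tested repair genes were called, and 0 probe sets of the whole table under those that gave that count, all but the mean of probe sets; the smallest adjusted p of a repair gene was 0.639 (limma). Of 614 gene values, other probe sets aside, 43 changed sign, in 12 of 23 genes. Apart from LIG3 each of these had a reported difference smaller than its SE, and the cause was not tested. BRCA1 stayed lower in every fit. With the upper 25% by mean, where fewer genes were tested, 7 of 13 repair genes were higher and base excision rested on PARP1 alone (-0.11). Without the filter the recombination median was -0.45 over 4 genes. Sign changes were CHEK2 0.0050 and DDB2 0.013 with median centring; CHEK2 0.0083 and ERCC2-ERCC3 r = 0.019 (permutation p = 0.949, n = 14) with quantile normalization; OGG1 -0.14 and ERCC3 -0.11 with array weights. With the GAPDH ratio they were CHEK2 0.17, XRCC4 0.10 and DDB2 0.048, and with the monocyte level CHEK2 0.016, TP53BP1 -0.061 and OGG1 -0.12. With the mean of probe sets they were PARP2 -0.046, LIG3 -0.041, OGG1 -0.15 and ERCC5 0.017. Other probe sets gave XRCC5 -0.14, XRCC6 -0.16, PARP2 -0.31, LIG3 -0.044 and -0.43, OGG1 -0.37, PMS2 -0.086 and ERCC5 0.51. Without control 1, CR 6 and CR 7, a choice made after seeing the data, OGG1 was -0.16 and ERCC3 -0.050.

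With 1 array left out the count of higher genes ran from 10 to 14 and the median from 0.012 to 0.12; with array weights the median was -0.0059. Pathway medians that crossed 0 were recombination -0.027 to 0.21, base excision -0.010 to 0.22, mismatch -0.047 to 0.10 and nucleotide excision -0.090 to 0.057. The ranges that crossed 0 were CHEK2 -0.18 to 0.10, FANCD2 -0.027 to 0.21, XRCC4 -0.30 to 0.018, OGG1 -0.24 to 0.25, MSH6 -0.17 to 0.0052, DDB2 -0.11 to 0.057, ERCC2 -0.054 to 0.19 and ERCC3 -0.066 to 0.14.

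Same-numbered animals of the diets, each diet centred on its mean, correlated from -0.11 to 0.18, over 0.1 in 4 of 7 pairs. Only control 5 correlated best with the CR animal of its own number. These values do not settle whether the numbers pair animals. The labels name no pairing, so none was used in the main fit. With the replicate block 12 of 20 genes were higher, 0 were called, and the median difference stayed at 0.066.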
